A study of Mus musculus with 20 samples.

Results

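T cells carrying Cd3 transcripts were taken from a single-cell RNA sequencing survey of the contused mouse spinal cord. They were defined as the cells that the authors' clustering placed in cluster 5 and that held at least 1 unique molecular identifier (UMI, 1 counted transcript molecule) over Cd3d, Cd3e and Cd3g together. The rule selected 576 of the 764 cells of cluster 5, out of 21016 cells in all. The members were thus chosen by the UMIs of these 3 genes and, through the clustering, by their whole expression profile, so their Cd3 levels are given only as a description.

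T cells recognise peptides held on MHC molecules through an antigen receptor, whose signal is passed into the cell by the CD3 chains and CD247. Cytotoxic T cells carry the coreceptor CD8 and helper T cells carry CD4. The healthy cord holds few T cells, and they enter it from blood and meninges after injury.

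The mice were 8 to 10 week old female C57BL/6J animals fed Vehicle chow or chow with PLX5622, an inhibitor of the CSF1 receptor that depletes microglia, labelled at 1200 ppm. Feeding began 2 weeks before a contusion at T9 (T9 SCI) or a laminectomy alone (sham) and lasted until tissue was taken, 7 or 28 days post-injury (dpi). Each of the 6 libraries pooled 3 to 4 mice, the sham libraries being labelled with both times, and the cords were not perfused, so that T cells of blood and of tissue cannot be told apart. With 1 library per condition no test between conditions was possible; the intervals given are 95% and cover counting error only, not the spread between mice.

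The genes of the 3 selecting chains lie side by side on chromosome 9 (GRCm38.p6), with Cd3g at 44969572 to 44980431, Cd3d at 44981769 to 44987052 and Cd3e at 44998735 to 45009663. By these limits Cd3g and Cd3d start 1338 bases apart. They run in opposite directions, Cd3g and Cd3e on the minus strand and Cd3d on the plus strand. Their promoters are shown because these transcripts define the cells. The windows run from 250 bases before to 50 bases after each start, from RefSeq. They lie at chr9:44980382-44980681 for Cd3g, chr9:44981536-44981835 for Cd3d and chr9:45009562-45009861 for Cd3e. For Cd3d and Cd3e the start used for the window lies slightly inside the gene limits given above. Capitals mark matches, on either strand, to the E-box CAGGTG and to the ETS motif AGGAAG.
Cd3g: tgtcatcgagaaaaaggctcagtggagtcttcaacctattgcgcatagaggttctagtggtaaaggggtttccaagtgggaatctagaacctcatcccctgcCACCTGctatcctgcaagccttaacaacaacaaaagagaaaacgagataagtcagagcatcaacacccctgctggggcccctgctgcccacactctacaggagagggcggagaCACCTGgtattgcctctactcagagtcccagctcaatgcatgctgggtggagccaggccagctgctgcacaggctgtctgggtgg
Cd3d: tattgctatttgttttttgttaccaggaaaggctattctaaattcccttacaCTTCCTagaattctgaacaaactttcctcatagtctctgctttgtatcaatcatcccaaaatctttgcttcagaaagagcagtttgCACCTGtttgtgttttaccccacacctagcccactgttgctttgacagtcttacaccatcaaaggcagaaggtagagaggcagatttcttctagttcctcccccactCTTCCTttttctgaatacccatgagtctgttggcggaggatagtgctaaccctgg
Cd3e: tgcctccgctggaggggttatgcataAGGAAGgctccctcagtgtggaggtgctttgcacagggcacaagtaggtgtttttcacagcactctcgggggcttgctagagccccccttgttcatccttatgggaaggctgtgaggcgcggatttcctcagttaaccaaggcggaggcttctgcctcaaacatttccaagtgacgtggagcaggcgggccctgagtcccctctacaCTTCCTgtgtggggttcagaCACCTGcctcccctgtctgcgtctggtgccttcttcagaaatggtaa
The E-box letters matched 2 times in Cd3g, 1 time in Cd3d and 1 time in Cd3e, and were held by 20.2% of 32851 RefSeq promoters of the same length. The ETS letters matched 2 times in Cd3d, 2 times in Cd3e and 0 times in Cd3g, against 35.4% of all promoters with a match. The RUNX letters TGTGGT (16.8% of all promoters) and the TATA letters TATAAA (13.6%) had 0 matches in these windows. A match describes letters only and shows no binding.

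The label was checked against markers of lymphocytes. The 4 T cell markers in the table that the Cd3 count did not use (Skap1, Lck, Cd2 and Cd5) had their highest level in cluster 5, and so did 6 of 8 markers of natural killer (NK) cells and 2 of 4 of type 2 innate lymphoid cells. The authors' clustering drew on the cells' whole profile, so this describes the cluster and is no independent check of the label. Below the Cd3 threshold cluster 5 was mixed. Of its 188 cells with 0 Cd3 UMIs, 69.7% held a UMI of an NK marker, against 10.8% of the 83 cells with 1 Cd3 UMI, 6.80% of the 250 cells with 2 to 4 and 11.9% of the 243 with 5 or more. Their median depths were 1436, 1085, 1358 and 2886 UMIs.

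Values just inside and outside the threshold separated along receptor and NK genes. Ncr1, an activating NK receptor, stood at 535 CPM (UMIs scaled to a common total per library or cell set, counts per 1e6) in cells with 0 Cd3 UMIs, at 72.9 CPM with 1 and at 10.4 CPM with 2 to 4. Gzma, a granule protease, stood at 5367, 749 and 12.5 CPM in the same order. Cd8a ran the other way, at 7.60, 126 and 198 CPM, and so did Thy1, a T cell surface protein, at 180, 331 and 383 CPM. Skap1, an adaptor of receptor signalling on chromosome 11 (96464570 to 96759622), did not separate the cells, at 144, 139 and 156 CPM. Nor did the kinase Lck, at 155, 146 and 190 CPM, or the adhesion receptor Cd2, at 218, 146 and 231 CPM. Cells with 5 or more Cd3 UMIs, the deepest set, were higher for these genes, with 240 CPM for Skap1, 280 for Lck and 262 for Cd2.

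Outside cluster 5 a Cd3 UMI was found in 119 of 20252 cells (0.588%), whose clusters together had a median depth of 3031 UMIs against 1692 in cluster 5. Only 10 of these held 5 or more Cd3 UMIs, of which 7 lay in cluster 8. The constant genes of the antigen receptor (Trac, Trbc1, Trbc2, Trdc and the Tcrg genes) were not analysed here, so alpha beta and gamma delta T cells were not separated.

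Depth differed between the libraries. The T cells had a median of 4815 UMIs in vehicle sham, 1661 in vehicle 7 dpi and 1269 in vehicle 28 dpi, and of 4832, 3687 and 2628 UMIs in the PLX5622 libraries in that order. Summed over the T cells, the libraries held 76866 to 508663 UMIs. Cell barcodes were shared by at most 21 cells between any pair of libraries, and no barcode belonged to T cells in both.

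Transcripts of microglia and of monocyte-derived macrophages (MDMs) moved with the injury libraries inside the T cells. UMIs of 12 genes that are high in myeloid cells (among them P2ry12, Apoe, Lyz2, C1qa, C1qb, C1qc, Ctsd, Cst3, Gpnmb, Spp1 and Tyrobp) made up a median of 0.0865% of a T cell's UMIs in vehicle sham. The median was 0.882% in vehicle 7 dpi and 1.00% in vehicle 28 dpi, against 0.0661%, 0.163% and 0.157% in the PLX5622 sham, 7 dpi and 28 dpi libraries. Endothelial cells (cluster 2), which are not myeloid but can express some of these genes, such as Ctsd and Cst3, had medians of 0.280%, 0.829% and 1.08% in the vehicle sham, 7 and 28 dpi libraries.

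A further set of T cells held much more. At least 2% myeloid UMIs was found in 29 of 105 T cells in vehicle 7 dpi and in 79 of 273 in vehicle 28 dpi, with up to 27.8% and 24.5% in single cells. The other 4 libraries held 2, 0, 1 and 2 such cells (vehicle sham, then PLX5622 sham, 7 dpi and 28 dpi). These cells were deep, with medians of 5328 and 3367 UMIs in vehicle 7 and 28 dpi against 1398 and 1150 in the other T cells. Their Cd3 level was 645 and 902 CPM there, against 2132 and 2691 CPM in the others. A doublet caller marked 72 of these 113 cells and 5 of the 463 others. The comparisons below are therefore given for all T cells and, where counts allow, for the 463 low-myeloid T cells (under 2%, a limit chosen after the data were seen).

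**Figure D1:**
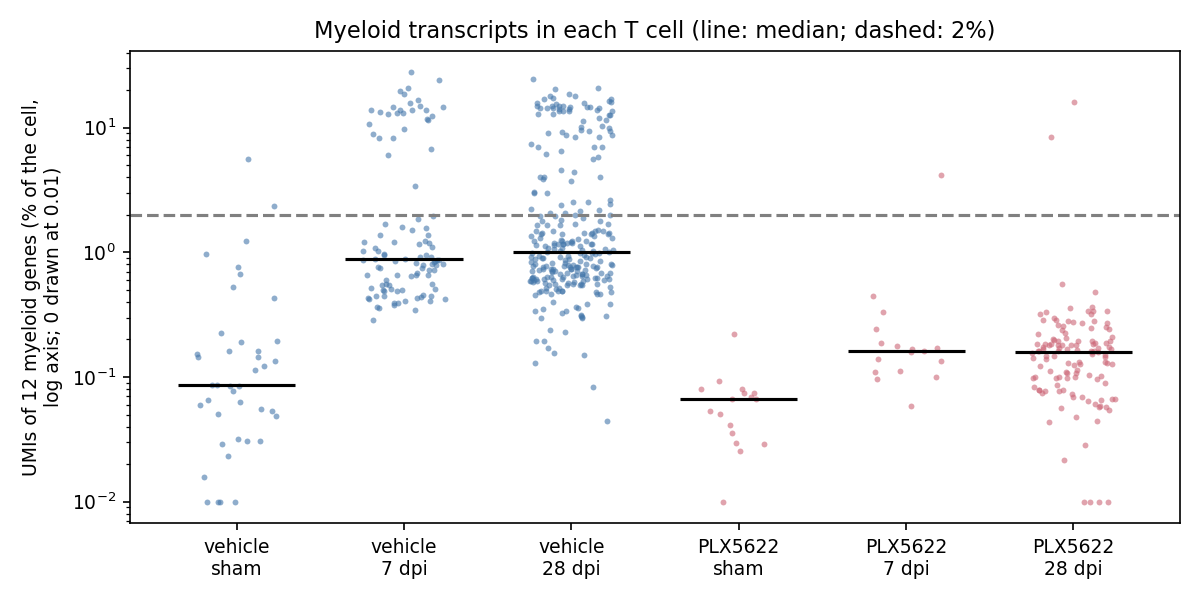
Share of each T cell's UMIs that came from 12 myeloid genes (%, log axis, cells at 0 drawn at 0.01), by library, with 1 point per cell, a line at the median and a dashed line at 2%. The vehicle 7 and 28 dpi libraries have medians of 0.882% and 1.00% and a tail reaching 27.8% and 24.5%, whereas the PLX5622 sham cells all lie below 0.3%.

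T cells made up the largest share of the cord cells in the PLX5622 28 dpi library. There were 41 T cells of 1795 cells in vehicle sham (2.28%, 1.64 to 3.09), 105 of 7439 in vehicle 7 dpi (1.41%, 1.16 to 1.71) and 273 of 9846 in vehicle 28 dpi (2.77%, 2.46 to 3.12). The PLX5622 libraries held 17 T cells of 492 cells in sham (3.46%, 2.03 to 5.47), 17 of 504 after 7 days (3.37%, 1.98 to 5.35) and 123 of 940 after 28 days (13.1%, 11.0 to 15.4). The intervals of the 28 dpi libraries did not overlap. Because PLX5622 removes microglia from the denominator, the share was also taken among cells other than microglia and MDMs.

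On that base the order at 28 dpi was kept but the gap was smaller. The share was 10.7% (9.50 to 11.9) in vehicle 28 dpi and 18.8% (15.9 to 22.1) in PLX5622 28 dpi. It was 4.38% and 4.64% in vehicle sham and 7 dpi, and 3.74% and 4.96% in PLX5622 sham and 7 dpi, all 4 with overlapping intervals. With every cell thinned to 1000 UMIs, which leaves out 103 shallower T cells, the shares of all cells were 2.31%, 0.993% and 2.04% in the vehicle libraries and 4.47%, 3.73% and 13.6% in the PLX5622 libraries, in the order sham, 7 and 28 dpi. A share says nothing of the number of T cells per cord, which was not measured.

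**Figure D2:**
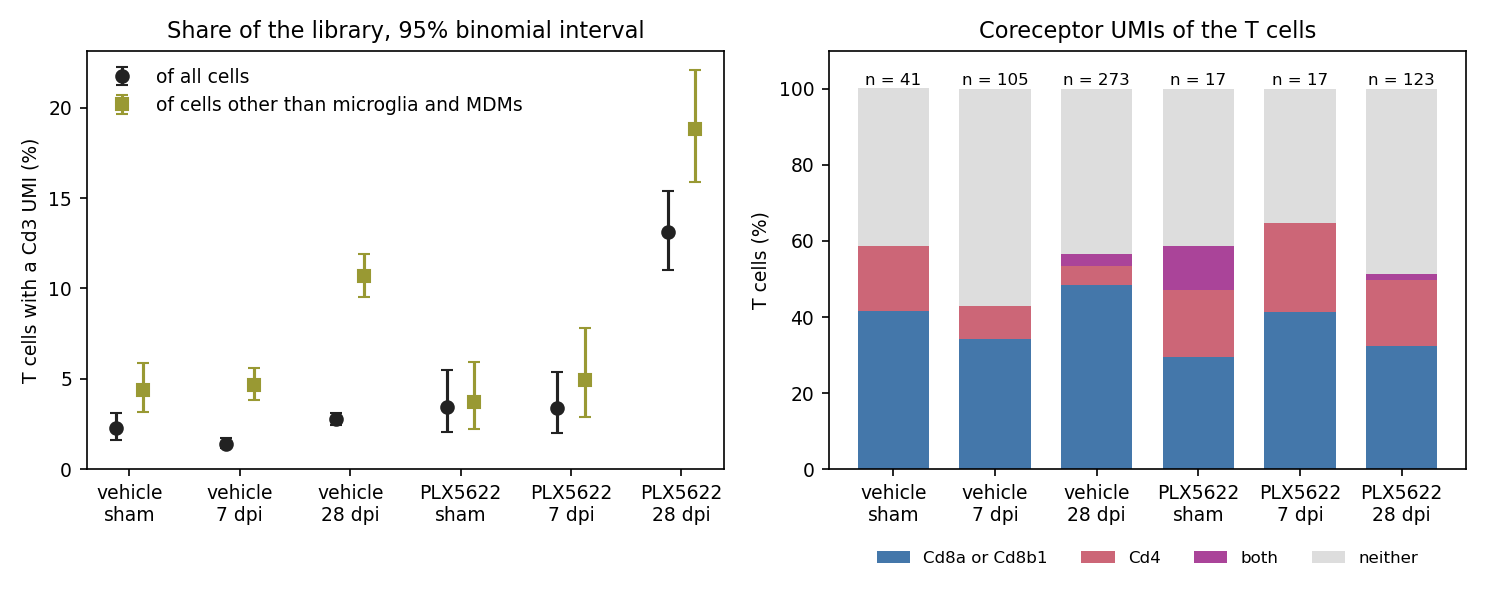
Left, T cells with a Cd3 UMI as a percentage of all cells of each library and of cells other than microglia and MDMs, with 95% binomial intervals; right, the percentage of T cells with Cd8a or Cd8b1, Cd4, both or neither, with the number of cells above each bar. The PLX5622 28 dpi library stands highest on both bases, at 13.1% and 18.8%, and the Cd4 band is thinnest in vehicle 28 dpi.

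Coreceptor transcripts resolved only some of the T cells, in every library more of them as CD8-type than as CD4-type. CD8-type rested on Cd8a or Cd8b1 (327 and 623 UMIs over all T cells) and CD4-type on Cd4 alone (90 UMIs). The classes therefore do not measure the true ratio of CD8 to CD4 T cells. CD8-type cells made up 29.4% to 48.4% of the T cells of a library, and cells with neither coreceptor 35.3% to 57.1%. UMIs of Cd8a or Cd8b1 without Cd4 were held by 17 of 41 T cells in vehicle sham, 36 of 105 in vehicle 7 dpi and 132 of 273 in vehicle 28 dpi, and by 5 of 17, 7 of 17 and 40 of 123 in the PLX5622 sham, 7 and 28 dpi libraries. Cd4 alone was held by 7, 9 and 14 cells with vehicle and by 3, 4 and 21 cells with PLX5622. Both were found in 0, 0, 8, 2, 0 and 2 cells, and neither in 17, 60, 119, 7, 6 and 60, in the same order of libraries. Thinned endothelial cells held Cd8 UMIs in 1 of 299 cells in vehicle 7 dpi and in 0 cells of every other library, and held no Cd4 UMI. For Cd4 the interval of endothelial cells reached 1.21% in vehicle 28 dpi, where 3.06% of thinned T cells (1.13 to 6.54) held Cd4 alone. It reached 6.72% in PLX5622 28 dpi, where 6.67% of thinned T cells (2.92 to 12.7) did. The intervals of T cells and endothelial cells thus overlapped in both libraries. Unthinned, the endothelial cells had median depths of 1342 to 5342 UMIs.

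The CD4 share of the cells with a single kind of coreceptor was lowest in vehicle 28 dpi. It was 9.59% there (5.34 to 15.6, 146 cells) against 34.4% in PLX5622 28 dpi (22.7 to 47.7, 61 cells), and 29.2% (12.6 to 51.1) in vehicle sham. Among low-myeloid T cells the 28 dpi values were 7.77% and 33.3%. The T cells differed in depth, however, with medians of 1269 and 2628 UMIs. With all cells thinned to 1000 UMIs the values were 8.00% (2.99 to 16.6) and 19.5% (8.82 to 34.9), whose intervals overlapped.

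The receptor complex and its signalling chain gave the next group, whose first 3 genes chose the cells. Cd3d stood at 989, 607 and 743 CPM in vehicle sham, 7 dpi and 28 dpi and at 1338, 846 and 1115 CPM in the PLX5622 libraries in the same order. Cd3e and Cd3g were likewise lowest in vehicle 7 dpi (256 and 443 CPM) and highest in PLX5622 sham (675 and 1078 CPM). Cd247, the zeta chain, which the rule did not use, had 33, 22, 37, 12, 12 and 47 UMIs, that is 168, 80.5, 72.7, 142, 156 and 142 CPM (vehicle sham, 7 dpi, 28 dpi, then PLX5622 sham, 7 dpi, 28 dpi; this order is kept below). Over all T cells, vehicle 7 and 28 dpi were the low libraries for all 4 genes. In low-myeloid T cells Cd3d stood at 990, 1029, 1166, 1338, 895 and 1139 CPM. Cd3e stood there at 481, 412, 514, 675, 534 and 588 CPM and Cd3g at 828, 691, 1011, 1078, 721 and 939 CPM. Vehicle 28 dpi was thus above vehicle sham for these genes in that set.

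For Cd247 vehicle 7 dpi over sham gave a log2 ratio of -1.06 (-1.91 to -0.24) over all T cells, and vehicle 28 dpi over sham -1.21 (-1.93 to -0.49). Low-myeloid T cells gave -0.10 (-1.01 to 0.77) and -0.47 (-1.25 to 0.31), with intervals that held 0. Of 15 signalling genes, those with at least 50 UMIs in the pair of libraries had medians of -0.81 (9 genes) and -0.79 (11 genes) in all T cells and of -0.26 and -0.22 in low-myeloid ones. PLX5622 over vehicle at 28 dpi gave 0.97 (0.32 to 1.63) for Cd247 and a median of 0.67 for the signalling genes in all T cells, and 0.28 (-0.42 to 1.00) and 0.01 in low-myeloid ones. In low-myeloid T cells neither Cd247 nor any signalling gene with enough UMIs passed 2-fold in any of the 4 comparisons.

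Across all genes with at least 50 UMIs in the pair of libraries, 128 of 1137 were over 2-fold higher (11.3%) and 93 over 2-fold lower (8.18%) in vehicle 7 dpi than in vehicle sham. At 28 dpi against sham 187 of 1752 were higher (10.7%) and 97 lower (5.54%). Between 28 and 7 dpi with vehicle 40 of 1887 were higher (2.12%) and 25 lower (1.32%). For PLX5622 over vehicle at 28 dpi 57 of 1987 were higher (2.87%) and 235 lower (11.8%). A gene with few UMIs can reach this minimum through the library in which it is high, so counts of list members below are descriptions.

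Fewer genes passed in low-myeloid T cells. They were 19 of 689 higher (2.76%) and 29 lower (4.21%) at 7 dpi against sham, and 35 of 982 higher (3.56%) and 38 lower (3.87%) at 28 dpi against sham. Between 28 and 7 dpi 17 of 810 were higher (2.10%) and 11 lower (1.36%), and for PLX5622 over vehicle at 28 dpi 12 of 1251 were higher (0.959%) and 38 lower (3.04%). The highest genes in all T cells of injured vehicle cords were myeloid, with Apoe over sham at log2 5.41 (5.21 to 5.61) for 7 dpi and 5.19 (5.00 to 5.40) for 28 dpi.

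Genes of naive and central memory T cells were lower in injured vehicle cords than in sham. Of 8 such genes with enough UMIs, 7 were over 2-fold lower at 28 dpi against sham (median log2 ratio -1.58), among them Ccr7, Lef1, Il7r, Klf2, Satb1 and Dapl1, against 5.54% of all genes. The low-myeloid T cells had 4 of 8 lower (median -1.15), against 3.87% of all genes. After 7 days 4 of 8 were lower in all T cells (median -1.11) and 2 of 7 in low-myeloid ones (median -0.60), against 8.18% and 4.21% of all genes, and no gene of the list was over 2-fold higher in either comparison.

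Ccr7, the receptor that guides T cells into lymph nodes, stood at 235, 58.5, 68.8, 284, 247 and 72.7 CPM. The high libraries were both shams and PLX5622 7 dpi. With vehicle the log2 ratio over sham was -2.00 (-2.92 to -1.15) for 7 dpi and -1.77 (-2.45 to -1.10) for 28 dpi. Low-myeloid T cells gave -1.46 (-2.56 to -0.49) and -1.31 (-2.09 to -0.57).

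Klf2, a transcription factor of quiescent, recirculating T cells, stood at 872, 366, 254, 912, 585 and 300 CPM. It was lowest in both 28 dpi libraries, with a vehicle ratio to sham of -1.78 (-2.12 to -1.44), and -1.61 (-2.04 to -1.20) in low-myeloid T cells. The cells of cluster 5 without a Cd3 UMI had Klf2 at 1151, 331, 320, 1267, 1119 and 413 CPM. Microglia and MDMs had it at 885, 92.0, 86.6, 581, 77.0 and 27.4 CPM. The lower Klf2 level in injured vehicle cords was thus not particular to T cells. Dapl1 stood at 250, 73.2, 59.0, 272, 117 and 66.7 CPM and Igfbp4 at 148, 32.9, 17.7, 130, 65.0 and 15.2 CPM, both again lowest at 28 dpi on either diet. Il7r, the interleukin 7 receptor, departed from this pattern with 770, 395, 293, 391, 1405 and 582 CPM. Its highest value was in the 17 T cells of PLX5622 7 dpi.

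Several cytotoxic and tissue genes were higher at 28 than at 7 dpi with vehicle. Xcl1, a chemokine made by CD8 T and NK cells, had 86, 7, 85, 19, 3 and 36 UMIs, that is 438, 25.6, 167, 225, 39.0 and 109 CPM. Both 7 dpi libraries were lowest. The log2 ratio of vehicle 28 over 7 dpi was 2.71 (1.60 to 4.06), and 2.87 (1.58 to 4.54) in low-myeloid T cells, and its 85 UMIs at 28 dpi were spread over 58 cells with at most 7 in 1 cell. The sham level rested on 1 cell, which held 64 of the 86 UMIs. Thinned to 1000 UMIs, 1.16% of T cells held an Xcl1 UMI in vehicle 7 dpi and 17.3% in vehicle 28 dpi, against 0% and 0.330% of endothelial cells.

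Cxcr6, a chemokine receptor of T cells held in tissue, stood at 285, 106, 328, 462, 364 and 388 CPM. Vehicle 7 dpi was the low library, and the ratio of vehicle 28 over 7 dpi was 1.63 (1.05 to 2.25), and 1.38 (0.73 to 2.09) in low-myeloid T cells. Klrd1, an NK-type receptor chain, stood at 433, 102, 228, 296, 195 and 279 CPM, with a ratio of 1.15 (0.55 to 1.81), and 1.64 (0.84 to 2.53) in low-myeloid T cells. Ctsw, a protease of cytotoxic cells, gave 1.04 (0.50 to 1.61) and 0.97 (0.37 to 1.61).

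The cytotoxic list had 2 of 7 genes over 2-fold higher at 28 than at 7 dpi with vehicle (Ctsw and Klrd1; median 0.69) and none lower, against 2.12% of all genes higher. Low-myeloid T cells had 2 of 5 higher (Ccl4 and Klrd1; median 0.97), against 2.10% of all genes. Ccl4 had 2 UMIs in low-myeloid T cells of vehicle 7 dpi and 118 in those of vehicle 28 dpi. It thus reached the UMI minimum only through the library in which it was high. Of its 171 UMIs over all T cells of vehicle 28 dpi, 76 lay in 1 cell. Against sham the members of the cytotoxic list split. At 28 dpi Ccl4, Ccl3 and Cst7 were higher and Gzma, Gzmb and Klrk1 lower in all T cells (10 genes, median -0.11), against 10.7% of all genes higher and 5.54% lower. Low-myeloid T cells had Ccl4 higher and Gzma lower among 8 genes (median 0.38), against 3.56% and 3.87%. Ccl4 again reached the minimum through vehicle 28 dpi. In vehicle sham it had 4 UMIs in all T cells and 3 in low-myeloid ones. Cst7, which myeloid cells also express, gave 1.45 (0.90 to 2.06) in all T cells and -0.23, with an interval that held 0, in low-myeloid ones. At 7 dpi against sham Ccl4 and Ccl3 were higher and Gzma, Ctsw and Klrd1 lower (8 genes, median -0.57), against 11.3% and 8.18% of all genes. In low-myeloid T cells Gzma and Klrd1 were lower and none higher among 5 genes (median -0.34), against 4.21% lower, and Ccl4 gave 0.02 (-3.56 to 3.15).

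Gzma was a matter of few cells, with 122, 8, 20, 18, 0 and 4 UMIs. In vehicle sham 121 of the 122 UMIs lay in 2 cells without coreceptor UMIs. With the T cells that held an NK marker UMI left out, the ratio of vehicle 7 dpi over sham went from -4.41 to 2.41. Ccl5, a chemokine of memory T cells, was among the most abundant messages, at 3370, 2279, 3132, 3186, 2160 and 4712 CPM, and Nkg7, a granule membrane protein, stood at 1055, 710, 1146, 959, 546 and 1021 CPM. Both were lowest at 7 dpi on either diet, but in low-myeloid T cells vehicle 7 dpi over sham gave 0.28 (0.10 to 0.46) for Ccl5 and 0.26 (-0.06 to 0.57) for Nkg7. The tissue residency list had 1 of 4 genes, Cxcr6, over 2-fold higher at 28 than at 7 dpi (median 0.39), against 2.12% of all genes. Against sham its median was -0.26 over 2 genes at 7 dpi and 0.49 over 4 genes at 28 dpi. Of these Cxcr6 was over 2-fold lower at 7 dpi, against 8.18% of all genes, and none passed at 28 dpi. Among low-myeloid T cells Cxcr6 was the 1 gene of the list with enough UMIs in these comparisons, at -0.57 (-1.35 to 0.16) and 0.81 (0.33 to 1.31) against sham.

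The coreceptor classes differed along the same genes. In PLX5622 28 dpi Ccl5 stood at 7642 CPM in CD8-type, 1340 CPM in CD4-type and 3294 CPM in unresolved cells, and Nkg7 at 1707, 460 and 706 CPM. In vehicle 28 dpi Ccl5 stood at 3870, 1282 and 2129 CPM and Nkg7 at 1421, 358 and 813 CPM. CD8-type cells were thus highest for both genes in both libraries. Of the Xcl1 UMIs, 49 of 85 in vehicle 28 dpi and 17 of 36 in PLX5622 28 dpi lay in CD8-type cells, and 1 in CD4-type cells in each.

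**Figure D3:**
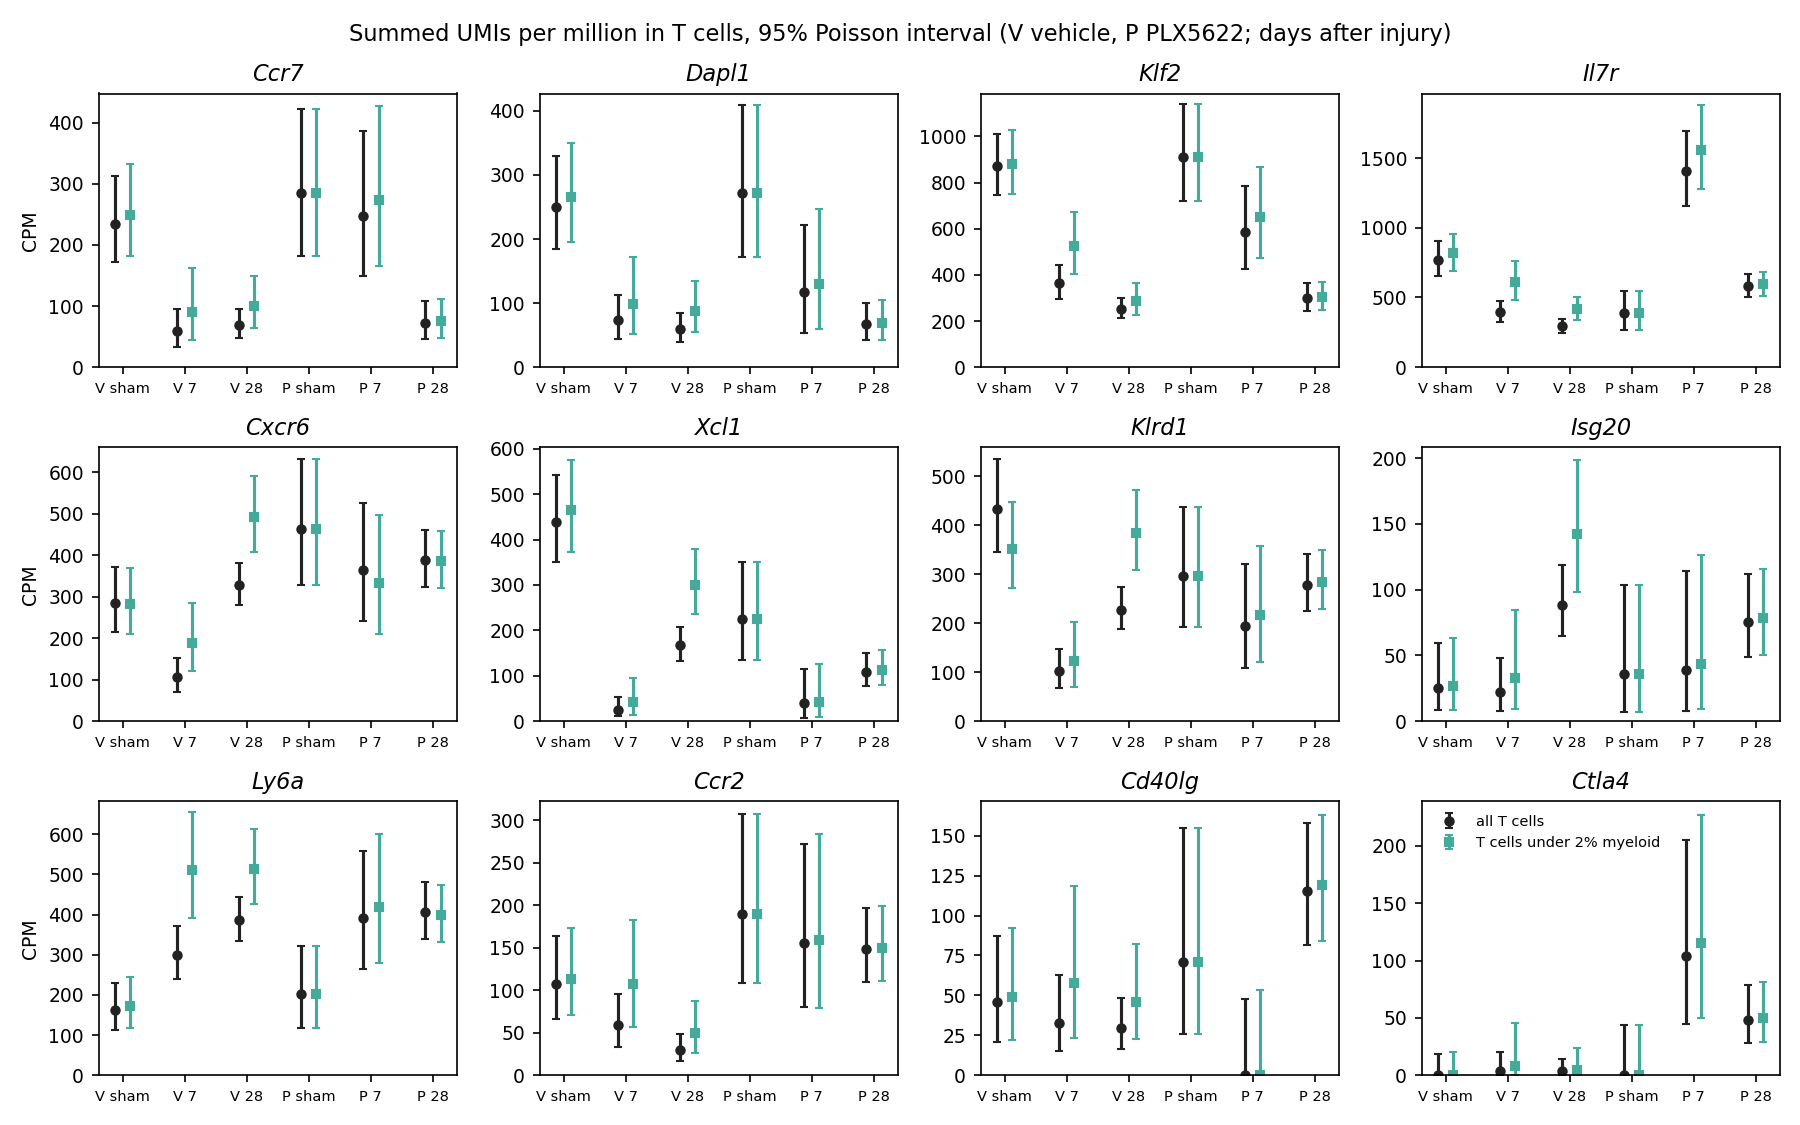
Level (CPM, linear axis from 0) of 12 genes in the T cells of each library (V vehicle, P PLX5622, sham, 7 or 28 dpi), as circles for all T cells and squares for T cells under 2% myeloid UMIs, with 95% Poisson intervals. Ccr7, Dapl1 and Klf2 are lower in both vehicle injury libraries than in vehicle sham, Xcl1 dips at 7 dpi on both diets, and Ctla4 stands above 40 CPM only in the 7 and 28 dpi PLX5622 libraries.

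Several genes induced by interferon were higher at 28 dpi with vehicle than in sham. Of 7 with enough UMIs, 4 were over 2-fold higher at 28 dpi (Isg15, Bst2, Ly6a and Isg20; median 1.24) and none lower, against 10.7% of all genes higher. Isg15 (9 and 69 UMIs) and Isg20 (5 and 45) reached the minimum of 50 UMIs through the 28 dpi library in which they were high. Among low-myeloid T cells 4 of 6 were (Isg15, Ifi27l2a, Bst2 and Ly6a; median 1.16), against 3.56% of all genes. At 7 dpi 1 of 4 was in all T cells (Bst2; median 0.77) and 2 of 3 in low-myeloid ones (Ifi27l2a and Ly6a; median 1.21), against 11.3% and 2.76% of all genes higher. The whole list summed to 1815, 2637 and 3045 CPM in T cells of vehicle sham, 7 and 28 dpi. Cells of cluster 5 without a Cd3 UMI had 722, 1685 and 2252 CPM, so the rise was not particular to T cells.

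Ly6a, the surface protein Sca-1, stood at 163, 300, 385, 201, 390 and 406 CPM. All 4 injury libraries were above both shams, and the vehicle ratio at 28 dpi was 1.24 (0.70 to 1.83), and 1.57 (1.00 to 2.18) in low-myeloid T cells. Isg20, an exonuclease, had 5, 6, 45, 3, 3 and 25 UMIs, that is 25.5, 21.9, 88.5, 35.5, 39.0 and 75.8 CPM, and was highest in the 28 dpi libraries. Vehicle 28 over 7 dpi gave 2.01 (0.78 to 3.53), and 2.11 (0.62 to 4.07) in low-myeloid T cells. Its thinned share of cells was 7.65% in vehicle 28 dpi T cells (1269 UMIs unthinned) and 3.63% in endothelial cells (1342 UMIs), so it is not a T cell gene alone.

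With PLX5622 at 28 dpi, 2 of 8 interferon genes were over 2-fold lower than with vehicle (Isg15 and Bst2; median -0.23), and in low-myeloid T cells 1 of 7 (Isg15; median -0.82), against 11.8% and 3.04% of all genes lower. Isg15 stood at 136 CPM with vehicle and 63.6 CPM with PLX5622, a ratio of -1.09 (-1.87 to -0.37), and -1.52 (-2.34 to -0.74) in low-myeloid T cells.

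The diet comparison at 28 dpi was dominated by myeloid genes in all T cells. All 6 MDM markers were over 2-fold lower with PLX5622 (median -4.04), against 11.8% of all genes. Their summed level was 44253 CPM with vehicle and 2470 CPM with PLX5622. Without the myeloid-rich cells 3 of 3 were still lower (median -2.53), against 3.04% of all genes. The markers then summed to 4404 and 673 CPM, although the 2% limit itself used Spp1 and Apoe. Of 91 named genes with enough UMIs in both sets, 16 were over 2 times higher in microglia and MDMs of vehicle 28 dpi than in its low-myeloid T cells. All 16 had a ratio below 0, and for 15 of them the ratio lay nearer to 0 in low-myeloid T cells, a shift that the limit favours by its construction.

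**Figure D4:**
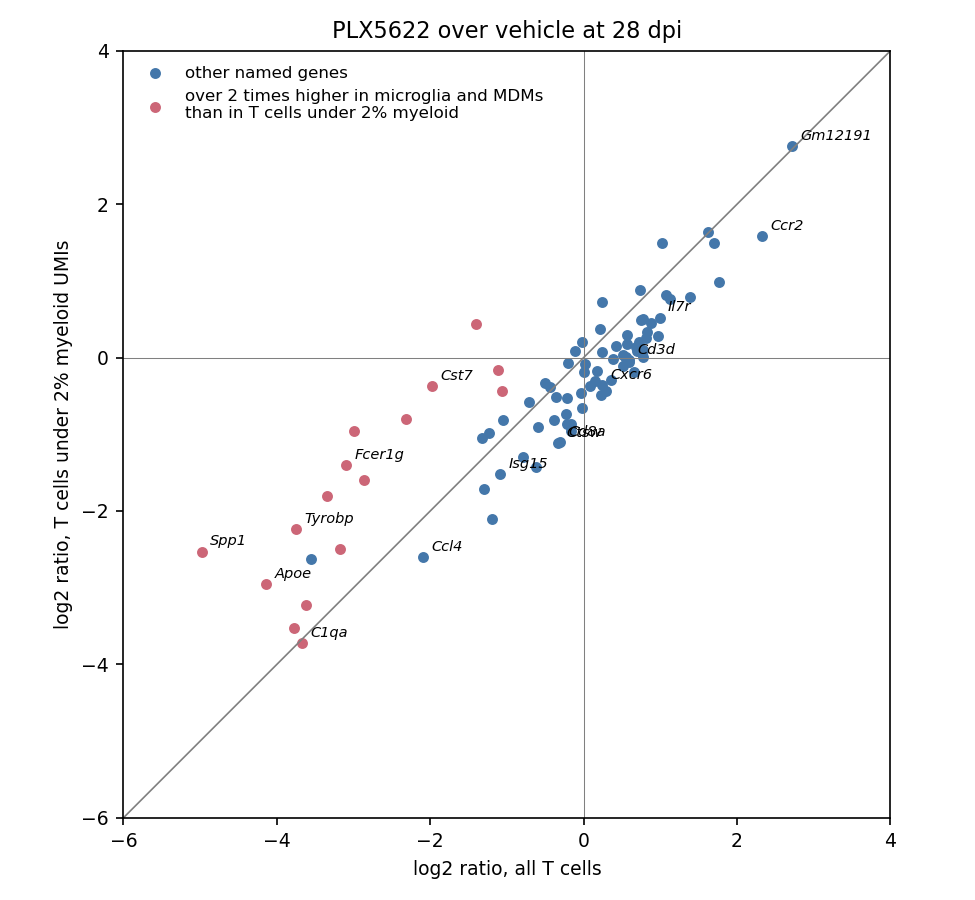
Log2 ratio of PLX5622 over vehicle at 28 dpi for 91 named genes, in all T cells (x axis) and in T cells under 2% myeloid UMIs (y axis), with the diagonal marking equal ratios. The 16 genes over 2 times higher in microglia and MDMs than in low-myeloid T cells (red) lie at negative ratios, 15 of them nearer 0 on the y axis, whereas Ccr2 and Gm12191 keep positive ratios on both axes.

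Among T cell genes Ccr2, the receptor for the monocyte chemokine CCL2, was higher with PLX5622. Its CPM was 107, 58.5, 29.5, 190, 156 and 148, from 21, 16, 15, 16, 12 and 49 UMIs. Vehicle 28 dpi was the low library. The log2 ratio at 28 dpi was 2.33 (1.47 to 3.27), and 1.58 (0.65 to 2.63) in low-myeloid T cells. The cells of cluster 5 without a Cd3 UMI had Ccr2 at 612, 176, 165, 403, 584 and 525 CPM. Vehicle 28 dpi was their lowest library too, so the diet difference was not particular to T cells. CD8-type cells held 15 and unresolved cells 26 of the 49 UMIs with PLX5622, against 3 and 12 of 15 with vehicle.

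Cd40lg, the helper signal to B cells and antigen-presenting cells, had 9, 9, 15, 6, 0 and 38 UMIs (45.9, 32.9, 29.5, 71.1, 0 and 115 CPM). At 28 dpi the ratio was 1.97 (1.07 to 2.93), and 1.37 (0.37 to 2.49) in low-myeloid T cells. With PLX5622 the 38 UMIs lay in 22 unresolved, 7 CD4-type and 3 CD8-type cells. At 1000 UMIs a cell, 2.55% of T cells held Cd40lg with vehicle and 14.2% with PLX5622, against 0% of endothelial cells in both; unthinned shares were 4.40% and 26.0%, at median depths of 1269 and 2628 UMIs.

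Some other genes of helper cells and of homing were higher with PLX5622 at 28 dpi. For Gata3 and Tnfrsf18 this was less clear in low-myeloid T cells. Gata3, a transcription factor of type 2 helper cells, gave 1.30 (0.45 to 2.19), and 0.68 (-0.28 to 1.71) in low-myeloid T cells. Of the helper list Gata3 (20 and 32 UMIs) and Cd40lg alone reached 50 UMIs, through the PLX5622 library in which they were higher. Tgfb1, a regulatory cytokine of that list, stayed under it with 34 and 10 UMIs (66.8 and 30.3 CPM), and in low-myeloid T cells no gene of the list reached it. Tnfrsf18 gave 1.39 (0.61 to 2.20) and 0.79 (-0.09 to 1.74). Il21r, the interleukin 21 receptor, gave 1.46 (0.69 to 2.26) in all T cells. In low-myeloid ones its 9 and 40 UMIs were under the minimum of 50, with a ratio of 1.74 (0.67 to 2.96).

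Il18r1, which binds interleukin 18, gave 1.08 (0.49 to 1.68) and 0.82 (0.12 to 1.56). Itgb7, an integrin of gut-homing T cells, gave 1.12 (0.61 to 1.64) and 0.76 (0.17 to 1.38). Over the homing list 2 of 11 genes were higher (Ccr2 and Itgb7) and 1 lower (Cx3cr1, median 0.42), against 2.87% and 11.8% of all genes, and in low-myeloid T cells 1 of 9 was higher (Ccr2; median 0.09), against 0.959%. Over the cytokine receptors 2 of 8 were higher (Il18r1 and Il21r) and 2 lower (Tgfbr1 and Tgfbr2; median 0.55), against the same shares. Tgfbr2 alone of 6 passed in low-myeloid T cells (median 0.17), at -1.05 (-1.94 to -0.19), against 3.04% of all genes lower.

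The highest genes overall with PLX5622 at 28 dpi included some shared with myeloid cells. Gm12191 gave 2.72 (2.13 to 3.34), with 30 and 128 UMIs in T cells, but it also stood at 29.7 CPM in vehicle and 181 CPM in PLX5622 microglia and MDMs. Ubb, a ubiquitin gene, gave 1.50 (1.13 to 1.88) in low-myeloid T cells and stood at 250 and 695 CPM in microglia and MDMs. Ptpn7, a phosphatase of lymphocytes, gave 1.62 (0.90 to 2.38), and 1.64 (0.71 to 2.69) in low-myeloid T cells.

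A few genes of cytotoxic T cells were lower with PLX5622 at 28 dpi in low-myeloid T cells. Ccl4, a chemokine of activated CD8 T cells and myeloid cells, had 171 UMIs with vehicle and 26 with PLX5622, a ratio of -2.09 (-2.75 to -1.49), and -2.60 (-3.27 to -1.98) in low-myeloid T cells; 1 vehicle cell held 76 of the 171 UMIs. Ctsw gave -0.33 (-0.77 to 0.09) in all T cells and -1.12 (-1.57 to -0.67) in low-myeloid ones, and Cd8a -0.31 (-0.76 to 0.12) and -1.10 (-1.56 to -0.65). Xcl1 gave -0.62 (-1.22 to -0.04) and -1.42 (-2.04 to -0.82). The cytotoxic list had Ccl4, Ccl3 and Cst7 lower among 8 genes in all T cells (median -0.25), and Ccl4 and Ctsw among 7 in low-myeloid ones (median -0.43), against 11.8% and 3.04% of all genes. Microglia and MDMs of vehicle 28 dpi held Ccl3, Ccl4 and Cst7 at 710, 775 and 1012 CPM. Ccl5 gave -0.06 (-0.17 to 0.05) and Klrk1, an activating receptor, 0.10 (-0.75 to 0.98) in low-myeloid T cells.

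Regulatory transcripts were rare. Ctla4, an inhibitory receptor of regulatory and activated T cells, had 0, 1, 2, 0, 8 and 16 UMIs, in 0, 1, 2, 0, 5 and 8 cells. It was thus found mostly in injured PLX5622 cords, with a ratio at 28 dpi of 3.62 (1.54 to 6.79) from 2 against 16 UMIs, and of 3.58 (0.90 to 8.97) from 1 against 16 in low-myeloid T cells. Of the 16 UMIs 9 lay in 4 CD4-type cells. Foxp3, the factor that defines regulatory T cells, had 6 UMIs in 4 cells of PLX5622 28 dpi and 0 in the other 5 libraries. Ikzf2, the Helios factor, stood at 35.7, 80.5, 90.4, 23.7, 91.1 and 133 CPM, higher in all 4 injury libraries than in sham, with 1.34 (0.18 to 2.73) at 28 dpi with vehicle, and 1.68 (0.46 to 3.11) in low-myeloid T cells from 7 and 29 UMIs.

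Inhibitory receptors of exhausted T cells were detected at low counts. Pdcd1 had 0, 2, 19, 3, 0 and 10 UMIs and Tox, a transcription factor of chronically stimulated T cells, 7, 5, 30, 5, 2 and 20. Both had most UMIs at 28 dpi, in the libraries with the most T cell UMIs. As CPM, Pdcd1 stood at 0, 7.32, 37.4, 35.5, 0 and 30.3, and Tox at 35.7, 18.3, 59.0, 59.2, 26.0 and 60.6. With PLX5622 neither gene was thus clearly higher at 28 dpi than in sham, where the Pdcd1 UMIs lay in 1 cell. Tox gave 1.69 (0.31 to 3.41) for vehicle 28 over 7 dpi, and 1.61 (0.07 to 3.59) in low-myeloid T cells. Lag3, with 7, 19, 40, 0, 2 and 6 UMIs, gave -2.11 (-3.64 to -0.87) for the diets at 28 dpi. Only 11 of the 40 vehicle UMIs lay in low-myeloid T cells, where the ratio was -1.55 (-3.43 to 0.09), and microglia and MDMs of that library stood at 144 CPM. Ifng had 19, 6, 11, 3, 2 and 4 UMIs and Prf1 at most 5 in a library, so these 2 effector messages rested on few counts. The 5 Prf1 UMIs lay in 5 of the 17 T cells of PLX5622 sham.

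Immediate early genes, which dissociation can induce, were highest in vehicle sham, at a summed 2982 CPM against 1851 and 1703 CPM at 7 and 28 dpi. Their medians against sham were -0.88 (4 of 8 over 2-fold lower, against 8.18% of all genes) and -0.79 (2 of 9, against 5.54%). Among low-myeloid T cells they were -1.19 (3 of 5 lower, against 4.21%) and -1.02 (4 of 6, against 3.87%). PLX5622 over vehicle at 28 dpi gave -0.71 (3 of 7 lower, against 11.8%), but -0.19 with 0 of 4 lower in low-myeloid T cells. Heat shock genes had medians between -0.52 and 0.63 in the 4 comparisons. Of 4 genes 1, Hsph1, was over 2-fold higher at 28 than at 7 dpi with vehicle, against 2.12% of all genes. In low-myeloid T cells the medians lay between -0.71 and 0.38. There Hsph1, 1 of 4 genes, was over 2-fold lower with PLX5622 at 28 dpi, at -1.29 (-2.21 to -0.42), against 3.04% of all genes. Cell cycle genes had medians between -0.17 and 0.40, and between -0.32 and 0.35 in low-myeloid T cells, with none past 2-fold. Mki67, which marks dividing cells, had 1, 3, 8, 0, 4 and 4 UMIs.

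Markers of other cells moved with some libraries, and their part in the results was not tested. NK markers summed to 1229, 4518, 4168, 332, 598 and 545 CPM, of which Tyrobp and Fcer1g, which myeloid cells share, made up 1225 and 820 of 2120 UMIs in vehicle 28 dpi and 59 and 62 of 180 in PLX5622 28 dpi. In the latter Klre1 and Klra7, a pair of NK receptors, stood at 60.6 and 54.5 CPM. Ncr1 and Klrb1c, which define NK cells, had at most 15 UMIs each in a library. In low-myeloid T cells the NK sum was 274 to 1119 CPM. Microglial markers summed to 856, 2755, 2493, 94.8, 286 and 258 CPM and to 28.9 to 414 CPM in low-myeloid T cells.

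Dendritic cell markers summed to 5.10, 768, 413, 0, 13.0 and 18.2 CPM. In vehicle 7 dpi the 60 UMIs of H2-Ab1 lay in 5 cells, 35 of them in 1. Astrocyte markers were highest in vehicle sham (780 CPM against 29.3 to 166 in the other libraries), erythroid markers in PLX5622 sham (1599 CPM against 15.7 to 185) and neutrophil markers in vehicle 28 dpi (682 CPM against 0 to 278). Markers of B cells, type 2 innate lymphoid cells, endothelial cells and oligodendrocytes stayed at or below 130 CPM in every library. Ribosomal protein genes made up 31.1% to 39.5% of the T cells' UMIs.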

How the data were processed

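Single cells of 6 pooled libraries (10x 3' chemistry, per the study's methods) were analysed. The authors aligned reads with Cell Ranger to GRCm38 (mm10), filtered and clustered cells with Seurat, and deposited raw UMI counts and cluster numbers, which were used as given. Builds and tools are from the submitters' processing notes. The table held 1795, 492 and 504 cells where the labels state 1916, 594 and 533 (vehicle sham, PLX5622 sham and 7 dpi), and 9846 against 9848 (vehicle 28 dpi). Bulk libraries were not used here, and some genes are not reported here.

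UMIs were summed over the T cells of a library and expressed as CPM with exact Poisson intervals. Ratios of libraries are log2 ratios of CPM with exact conditional binomial intervals; shares have Clopper-Pearson intervals. Where a gene had 0 UMIs in 1 library, 3 counts stood in for it. Gene counts cover those whose UMIs in the pair of libraries summed to at least 50, and over 2-fold was taken as past the threshold. Libraries with under 20 T cells entered ratios only in the comparison of stages between diets in the closing section. The text names genes of 16 role lists (158 of 180 genes were in the table, 124 with at least 20 UMIs) and 12 marker lists, and the 5 highest and lowest per comparison with at least 5 UMIs in each library. The T cells and the lists were chosen with earlier results of these data known. Doublets were called with Scrublet (scanpy 1.11.5) and kept, and their removal is an alternative. Scripts ran in Python 3.11.15 (scipy 1.17.1, numpy 2.4.6, pandas 2.3.3, matplotlib 3.10.9) and R 4.3.3 (edgeR 4.0.16 and DESeq2 1.42.0 for scaling factors only), and were tested on simulated data. Alternatives covered the Cd3 and UMI minimums, doublets, NK and myeloid UMIs, thinning, scaling and cell weights.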

Additional observations from a re-analysis of the deposited data

Results flagged for a closer look

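For 9 of 372 comparisons of stages over 124 genes, the T cells went one way with vehicle and the opposite way with PLX5622, with the counting interval of the ratio clear of 0 in each diet. The difference between the diets itself was not tested, and the PLX5622 sham and 7 dpi libraries held 17 T cells each. Il7r was lower at 7 and 28 dpi than in sham with vehicle (151, 108 and 149 UMIs in sham, 7 and 28 dpi) and higher with PLX5622 (33, 108 and 192 UMIs). Il18r1 did the same, with 28, 16 and 43 UMIs with vehicle and 4, 16 and 59 with PLX5622. Itga4, an integrin chain for entry into the central nervous system, was lower at 28 dpi than in sham with vehicle (68 and 82 UMIs, 347 and 161 CPM) and higher with PLX5622 (8 and 86 UMIs, 94.8 and 261 CPM). Ifngr1 was lower at 7 dpi with vehicle (84 and 67 UMIs, 428 and 245 CPM) and higher with PLX5622 (30 and 61 UMIs, 355 and 794 CPM). Zfp36, an immediate early gene, was lower at 7 dpi and higher again at 28 dpi with vehicle (204, 91.5 and 147 CPM) and ran the other way with PLX5622 (2, 11 and 12 UMIs, that is 23.7, 143 and 36.4 CPM). Ccl3 was higher at 28 than at 7 dpi with vehicle (45 and 132 UMIs) and lower with PLX5622 (5 and 3 UMIs). Of these UMIs only 4 and 28 with vehicle and 1 and 3 with PLX5622 lay in low-myeloid T cells. All 9 comparisons covered all T cells and were not repeated in the low-myeloid ones.

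A signal also lay outside the cells the report describes. In cluster 8, whose 617 cells stood highest for the division marker Mki67 (591 CPM), 7 cells held 5 to 29 Cd3 UMIs. Of these 5 held Mki67, 6 Top2a, 4 a Cd8 UMI and 1 Cd4, and they came from vehicle sham (1), vehicle 7 dpi (2), vehicle 28 dpi (2) and PLX5622 28 dpi (2).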

How the results depend on the processing

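No paired analysis was possible because each condition has 1 library. The number of genes past 2-fold moved most. It was 221 for vehicle 7 dpi over sham, 284 for vehicle 28 dpi over sham, 65 for vehicle 28 over 7 dpi and 292 for PLX5622 over vehicle at 28 dpi. In that order it was 129, 74, 103 and 67 without called doublets, 48, 73, 28 and 50 in low-myeloid T cells (chosen after the data were seen), and 35, 96, 12 and 80 with cells thinned to 1000 UMIs. With a minimum of 20 UMIs it was 679, 865, 372 and 862, with 100 it was 92, 133, 15 and 137, and with 1 it was 4667, 4388, 3126 and 3939. With each cell weighted alike vehicle 28 over 7 dpi gave 103. The number of genes tested also changed with most of these settings. As shares of tested genes, the main values were 19.4%, 16.2%, 3.44% and 14.7%. They were 15.0%, 7.38%, 9.50% and 5.01% without doublets and 6.97%, 7.43%, 3.46% and 4.00% in low-myeloid T cells. Thinned they were 13.4%, 19.1%, 1.97% and 11.5%. With 20 UMIs they were 22.6%, 20.6%, 8.45% and 19.0%, and with 100 they were 18.5%, 16.3%, 1.66% and 14.5%. The cause was not tested.

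The T cell share moved with its base, to 4.38%, 4.64%, 10.7% and 18.8% of cells other than microglia and MDMs (vehicle sham, 7 dpi, 28 dpi and PLX5622 28 dpi) and to 61.2%, 68.6%, 78.2%, 81.0%, 73.9% and 81.5% of cluster 5 over all 6 libraries. Thinned it was 0.993% and 2.04% in vehicle 7 and 28 dpi, and without doublets 2.35% in vehicle 28 dpi. The CD4 share in PLX5622 28 dpi was 19.5% thinned.

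Some ratios that were past 2-fold turned sign. Without T cells holding an NK marker UMI, Gzma gave 2.41 at 7 dpi and 1.27 at 28 dpi over sham, and Gzmb 1.46 and Klrk1 0.55 at 28 dpi; with at least 2 Cd3 UMIs Gzmb gave 2.55. Thinned, Cd247 gave 0.52 at 7 dpi over sham. Without doublets Slc1a2 and Sparcl1 gave 1.08 and 0.93 at 28 dpi over sham. In low-myeloid T cells Cst7 gave -0.23 at 28 dpi over sham and Fos 0.02 at 28 over 7 dpi. The regulatory list median was -0.91 at 28 dpi over sham with a minimum of 1 UMI. In all 2797 gene ratios under alternatives stayed within the counting interval, 363 moved and 10 turned sign. Of list medians 427 stayed, 244 moved and 1 turned sign. A change of sign was counted only for values past 2-fold, so smaller ratios that changed sign are among those that stayed or moved.

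TMM factors shifted all genes by 0.26 and 0.22 on the log2 scale for vehicle 7 and 28 dpi over sham, and DESeq2 factors by 0.25 and 0.19; totals without ribosomal genes shifted PLX5622 over vehicle by 0.19. The split of higher and lower genes was then 167 and 38 (TMM) or 164 and 40 (DESeq2) at 7 dpi, 239 and 46 or 234 and 50 at 28 dpi over sham, 29 and 32 for 28 over 7 dpi (DESeq2), and 111 and 196 for the diets without ribosomal genes. Under 3 myeloid UMIs left 13, 0, 7, 9, 1 and 35 T cells and gave no comparison.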

Other observations

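The 60 T cells of PLX5622 28 dpi without a coreceptor UMI resembled its CD4-type more than its CD8-type cells in 2 messages. Il7r stood at 837 CPM in them, 708 CPM in CD4-type and 229 CPM in CD8-type cells, and Cd40lg at 176, 153 and 25.5 CPM. In vehicle 28 dpi Il7r stood at 396, 417 and 208 CPM in the same order. Nkg7 in the unresolved cells lay between the others in both libraries. These genes were picked after their values were seen.

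Tnf, a cytokine, had 14 UMIs in 10 T cells of PLX5622 28 dpi and at most 4 in any other library. Plac8 stood at 51.0 CPM in vehicle sham and 132 CPM in vehicle 28 dpi, and its ratio for the diets at 28 dpi was -1.19 (-2.01 to -0.44), and -2.10 (-2.96 to -1.32) in low-myeloid T cells. The receptor Cxcr3, which binds chemokines induced by interferon gamma, stood at 153, 62.2, 96.3, 249, 182 and 158 CPM (vehicle sham, 7 dpi, 28 dpi, then PLX5622 sham, 7 dpi, 28 dpi).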
